A study of Homo sapiens with 8 samples.

Results

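The 40 genes described here encode the kinetochore and the spindle assembly checkpoint, and they were taken from the count file by symbol from a list of names, with no threshold on measured values. All 40 are among the 26364 genes of the count file, and all 40 passed the filter on low counts that left 14201 genes for testing. The counts come from RNA-seq of 2 stable clones of LN229, an established human glioblastoma cell line that is proficient for p53 and does not express MGMT. Clone D6, called Surv-GFP, carries a Survivin-eGFP fusion with a functional nuclear export signal. Clone L2, called SurvNESmut-GFP, carries the same fusion with leucine-to-alanine substitutions in that signal, which holds the protein mainly in the nucleus. Both clones also keep their own Survivin and were obtained as single clones resistant to G418. Each was left untreated or exposed to 50 µM temozolomide (TMZ), a methylating chemotherapeutic, for 48 h. This gives 4 groups of 2 libraries, lettered a and b. Each variant is represented by 1 clone, so the effect of the construct and that of the clone cannot be told apart. The study describes independent biological replicates with technical duplicates of each, but the files hold 2 libraries per group and the labels do not say which of these the letters are. The p-values measure the spread between letters, which would be technical if the letters were duplicates.

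The kinetochore is the protein assembly that joins a chromosome to spindle microtubules. Its base is centromeric chromatin with the histone variant CENP-A, on which the constitutive centromere-associated network (CCAN) sits. The network recruits the MIS12 complex and the NDC80 complex, which holds the microtubule, while the SKA complex, CENP-E, CENP-F and the astrin-kinastrin pair act at the outer face. Unattached kinetochores recruit the RZZ complex and the checkpoint proteins, which hold back CDC20, the activator of the anaphase-promoting complex. Transcripts of many of these genes accumulate from S phase to mitosis and are low in resting cells. In such bulk samples fewer cells in these phases and less RNA per cell cannot be told apart.

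Between 15826923 and 18861603 reads per library fell on genes, and the members held between 90 reads (OIP5) and 14569 reads (CENPF) in a library. Values are given as CPM (read counts relative to the size of the library, corrected with TMM factors), and differences as log2 fold change ± standard error. A gene was called at a Benjamini-Hochberg adjusted p under 0.05 in edgeR's quasi-likelihood test, adjusted over all tested genes. The 2 libraries of a group differed beyond counting noise in every group. VIM (2348 to 3783 CPM) and NES (524 to 1005.5 CPM) were high in all libraries, as was CD44 (566 to 742 CPM), and EGFR, SOX2 and OLIG2 were detected (5.55 to 101 CPM), while GFAP, SOX9 and CHI3L1 were each under 1 CPM. The glial marker S100B differed between the clones, with 777 CPM in untreated Surv-GFP and 40.6 CPM in untreated SurvNESmut-GFP on average. In the same order, SOX2 (90.7 and 34.4 CPM), OLIG2 (34.0 and 6.94 CPM) and VIM (3740 and 3004 CPM) were also higher in untreated Surv-GFP. NES (736 and 965 CPM) and CD44 (574 and 653 CPM) were lower there. Of the immune and endothelial markers, CD68 was at 11.9 to 21.4 CPM, and PTPRC, CD3E, CD14, PECAM1, CDH5 and VWF were under 1 CPM. Among neuronal and epithelial markers SNAP25, SYP, KRT8 and KRT18 were detected (KRT18 at 129 to 270.5 CPM), and RBFOX3, EPCAM and CDH1 were under 1 CPM. BIRC5, which encodes Survivin, stood at 1133 ± 27.9 CPM (SD, n = 2) in untreated and 1984 ± 64.6 CPM in TMZ-exposed Surv-GFP, and at 411 ± 5.22 and 258 ± 6.89 CPM in SurvNESmut-GFP. Reads of the transgene and of the cell's own gene are not separated in these counts, and a substitution in the export signal is not visible in them.

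Promoters of genes of this group are known to carry the cell cycle genes homology region (CHR), which is bound by the MuvB complexes, and CCAAT boxes, which are bound by NF-Y. The windows below run from 100 bases before to 50 bases after the start of the gene in RefSeq (GRCh38.p14) and read 5′ to 3′ on the strand of the gene. They are shown for 4 genes that fell by over 1.5 on the log2 scale in Surv-GFP, for BUB1, which fell as far without a CHR in its window, and for SKA1 and MIS12, which rose there. Capitals mark CHR elements (TTTGAA or TTTAAA) and CCAAT boxes on either strand.
CENPA (chr2:26785956-26786105, plus strand): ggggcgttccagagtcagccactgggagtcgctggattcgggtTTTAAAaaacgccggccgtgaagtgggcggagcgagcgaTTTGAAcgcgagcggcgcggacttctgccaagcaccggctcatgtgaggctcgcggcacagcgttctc
CENPE (chr4:103198294-103198443, minus strand): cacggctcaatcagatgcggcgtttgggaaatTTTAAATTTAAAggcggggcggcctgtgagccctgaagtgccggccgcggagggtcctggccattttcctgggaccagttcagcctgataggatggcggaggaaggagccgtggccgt
CENPF (chr1:214603095-214603244, plus strand): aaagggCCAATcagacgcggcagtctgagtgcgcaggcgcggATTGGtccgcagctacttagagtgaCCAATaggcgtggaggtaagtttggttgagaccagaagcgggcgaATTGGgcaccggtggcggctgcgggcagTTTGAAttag
CDC20 (chr1:43358881-43359030, plus strand): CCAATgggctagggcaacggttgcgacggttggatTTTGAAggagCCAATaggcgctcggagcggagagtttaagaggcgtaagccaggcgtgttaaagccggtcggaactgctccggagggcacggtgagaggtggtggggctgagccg
BUB1 (chr2:110678014-110678163, minus strand): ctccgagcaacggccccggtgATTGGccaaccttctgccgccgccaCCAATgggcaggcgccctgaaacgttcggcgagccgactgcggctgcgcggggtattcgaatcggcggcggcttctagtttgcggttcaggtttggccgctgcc
SKA1 (chr18:50374946-50375095, plus strand): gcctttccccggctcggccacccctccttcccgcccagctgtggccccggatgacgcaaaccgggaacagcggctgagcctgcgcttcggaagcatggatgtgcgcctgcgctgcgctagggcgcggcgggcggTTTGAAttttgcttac
MIS12 (chr17:5486274-5486423, plus strand): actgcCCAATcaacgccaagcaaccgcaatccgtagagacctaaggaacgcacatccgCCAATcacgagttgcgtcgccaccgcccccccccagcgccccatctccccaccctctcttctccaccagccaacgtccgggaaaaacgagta

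Upon TMZ the transcripts of the group fell in both clones, and further in Surv-GFP. Summed over the 40 members, untreated Surv-GFP held 2837 and 3057 CPM (letters a and b) and TMZ-exposed Surv-GFP 1762 and 1694 CPM. In SurvNESmut-GFP the sum was 3813 and 3877 CPM without TMZ and 2745 and 2803 CPM with TMZ. The 4 groups did not overlap in this sum. By single genes, 30 members were called lower in Surv-GFP against 28.9% of all tested genes, and 4 were called higher against 30.1%. The median log2 fold change of the members was -0.45 with a range of -1.69 to 0.34, and the median of all tested genes was 0. In SurvNESmut-GFP, 21 members were called lower against 19.1% of all genes and 3 higher against 18.6%, with a member median of -0.20 and a range of -1.40 to 0.46. A fall of at least 1 on the log2 scale was reached by 11 members in Surv-GFP, namely BUB1, BUB1B, CDC20, CENPA, CENPE, CENPF, HJURP, KNSTRN, OIP5, SPAG5 and TTK, against 5.29% of all genes. In SurvNESmut-GFP BUB1, CDC20, CENPA and CENPE passed that size, which is 4 members against 1.76% of all genes.

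The fall was uneven along the kinetochore. In Surv-GFP it was deepest in CENPA, CENPE, BUB1, CENPF and CDC20, and in SurvNESmut-GFP in CENPA, CENPE, BUB1, CDC20 and KNSTRN. It was shallower in the CCAN and the MIS12 complex, as the plot of all members by library shows.

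**Figure D1:**
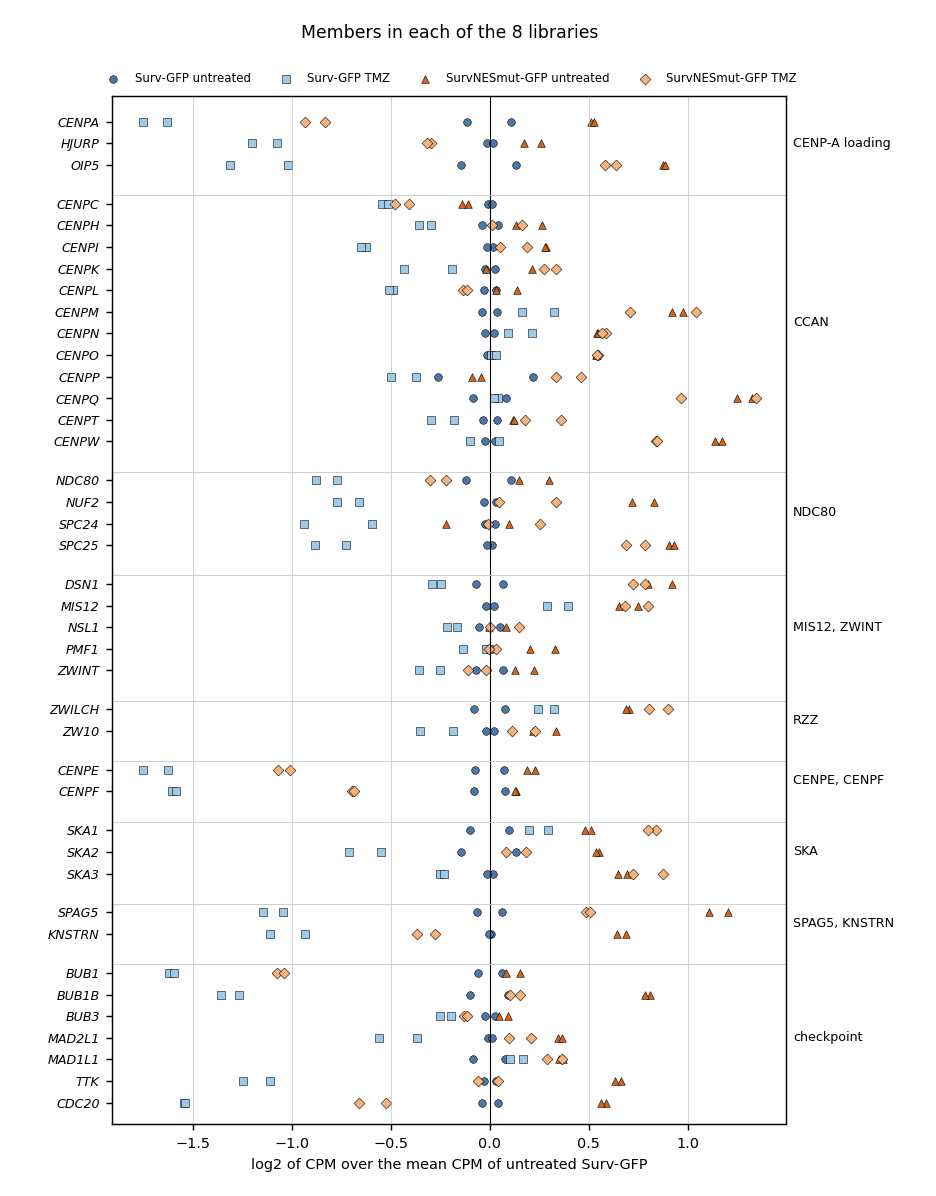
Level of each member in each of the 8 libraries, as log2 of its CPM over the mean CPM of untreated Surv-GFP (horizontal axis), with members ordered by role (vertical axis). Each symbol is 1 library and its colour and shape give the group. TMZ-exposed Surv-GFP (light blue squares) lies farthest left for CENPA, CENPE, CENPF, BUB1 and CDC20, and the SurvNESmut-GFP libraries lie mostly right of 0 without TMZ.

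CENPA, the histone H3 variant that marks the centromere, stood at 37.4 and 43.6 CPM in untreated and 13.1 and 12.1 CPM in TMZ-exposed Surv-GFP (letters a and b). In SurvNESmut-GFP it stood at 57.7 and 58.3 CPM without and 22.7 and 21.2 CPM with TMZ. Treated and untreated libraries were far apart in both clones. The log2 fold change was -1.69 ± 0.09 in Surv-GFP (edgeR adjusted p = 1.30e-10) and -1.40 ± 0.08 in SurvNESmut-GFP (adjusted p = 1.78e-09), falls of 3.22-fold and 2.64-fold. The 2 factors that load CENP-A fell as well. OIP5, the Mis18-beta subunit that licenses the centromere, stood at 13.1 and 10.8 CPM before and 4.81 and 5.91 CPM after TMZ in Surv-GFP, and at 22 and 22.1 CPM before and 18.6 and 17.9 CPM after TMZ in SurvNESmut-GFP. The treated libraries of SurvNESmut-GFP were above every library of Surv-GFP. The change of OIP5 was -1.16 ± 0.14 in Surv-GFP (adjusted p = 1.65e-06) and -0.27 ± 0.10 in SurvNESmut-GFP (adjusted p = 0.0456). The latter call was lost when any 1 of the 4 SurvNESmut-GFP libraries was left out (log2 fold change -0.30 to -0.24, adjusted p from 0.0626 to 0.154) and with DESeq2 (-0.28, adjusted p = 0.167). In GENCODE v29, 38.0% of the exon bases of OIP5 overlap the antisense gene OIP5-AS1, and reads of the 2 cannot be told apart where strand was not counted. HJURP, the chaperone that deposits CENP-A, fell by 1.13 ± 0.06 on the log2 scale in Surv-GFP and by 0.52 ± 0.05 in SurvNESmut-GFP.

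In the CCAN the falls were smaller. Of its 12 members, 7 were called lower (58.3%, against 28.9% of all genes) and 1 higher in Surv-GFP, with a median of -0.27. In SurvNESmut-GFP 2 were called lower (16.7%, near the 19.1% of all genes) and 1 higher. Its summed level in Surv-GFP went from 364 and 372 CPM to 348 and 331 CPM. CENPC, which binds the CENP-A nucleosome and recruits the MIS12 complex, went from 22.5 and 22.9 to 15.6 and 15.9 CPM in Surv-GFP and from 21 and 20.6 to 16.3 and 17.1 CPM in SurvNESmut-GFP. The treated libraries were below the untreated ones in both clones (-0.53 ± 0.08, adjusted p = 4.43e-05, and -0.32 ± 0.09, adjusted p = 0.00800), although the call in SurvNESmut-GFP was lost without its untreated library a (-0.30, adjusted p = 0.0506), without its TMZ library a (-0.28, adjusted p = 0.0536) and with DESeq2 (-0.32, adjusted p = 0.0527). CENPI, of the CENP-H/I/K/M subcomplex, went from 24.1 and 23.6 to 15.5 and 15.2 CPM in Surv-GFP and from 29.1 and 28.9 to 24.7 and 27.2 CPM in SurvNESmut-GFP. Its fall of 0.64 ± 0.08 in Surv-GFP (adjusted p = 6.95e-06) was the largest in the network, and the value of -0.16 ± 0.08 in SurvNESmut-GFP missed the threshold (adjusted p = 0.112). CENPK, of the same subcomplex, measured 28.3 and 29.3 CPM before and 25.2 and 21.3 CPM after TMZ in Surv-GFP, while 28.4 and 33.4 CPM stood against 34.8 and 36.3 CPM in SurvNESmut-GFP. Only the former was called (-0.30 ± 0.09, adjusted p = 0.0109), and it was lost without the untreated library b of Surv-GFP (-0.28, adjusted p = 0.0692) or its TMZ library b (-0.22, adjusted p = 0.0946). The value of CENPK in SurvNESmut-GFP, 0.20 ± 0.09 (adjusted p = 0.0863), was called higher without the untreated library b of that clone (0.32, adjusted p = 0.0379) and with library size alone (0.24, adjusted p = 0.0469).

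CENPL and CENPN form the pair that contacts CENP-A with CENP-C. CENPL went from 21.7 and 22.6 to 15.8 and 15.6 CPM in Surv-GFP (-0.50 ± 0.09, adjusted p = 0.000105) and from 24.4 and 22.7 to 20.2 and 20.5 CPM in SurvNESmut-GFP (-0.21 ± 0.08, adjusted p = 0.0547), the latter called with DESeq2 size factors (-0.22, adjusted p = 0.0494). Its partner CENPN moved the other way in Surv-GFP, from 77.5 and 79.9 to 91.3 and 83.9 CPM (0.16 ± 0.05, adjusted p = 0.0201), and measured 115 and 115 CPM without and 118 and 117 CPM with TMZ in SurvNESmut-GFP. The rise of CENPN was small and was lost without the untreated library a (0.14) or the TMZ library a of Surv-GFP (0.10). The call was also lost with DESeq2 (0.13, adjusted p = 0.129). So it was with no filter beyond 1 count (0.13, adjusted p = 0.0621) and with 1 CPM in 2 libraries (0.11, adjusted p = 0.0777). CENPP, of the CENP-O/P/Q/U subcomplex, was the 1 member with calls of opposite sign in the clones. It went from 7.32 and 10.2 to 6.2 and 6.77 CPM in Surv-GFP (-0.43 ± 0.15, adjusted p = 0.0240) and from 8.24 and 8.5 to 11 and 12 CPM in SurvNESmut-GFP (0.46 ± 0.14, adjusted p = 0.0177). These are low levels, 31.3% of the exon bases overlap genes of the other strand, and each call was lost without 1 of 2 libraries. Both calls were also lost with DESeq2 (-0.46, adjusted p = 0.0549, in Surv-GFP and 0.46, adjusted p = 0.0703, in SurvNESmut-GFP). Without the untreated library b of Surv-GFP the value was -0.17 (adjusted p = 0.415), without its TMZ library a -0.37 (adjusted p = 0.135), and without the untreated library a or b of SurvNESmut-GFP 0.44 and 0.48 (adjusted p = 0.102 and 0.0764). CENPW, the histone-fold partner of CENP-T, overlapped between treated and untreated Surv-GFP (16.4 and 15.8 CPM without and 16.6 and 15 CPM with TMZ) and went from 35.5 and 36.4 to 28.8 and 28.9 CPM in SurvNESmut-GFP (-0.32 ± 0.07, adjusted p = 0.00303). Among the rest of the network CENPH (-0.33 ± 0.08) and CENPT (-0.24 ± 0.08) were called lower in Surv-GFP alone. The call of CENPT was lost without library b of either Surv-GFP group (-0.20 and -0.21) and with DESeq2 (-0.26, adjusted p = 0.0543). CENPM (0.25 ± 0.11 and -0.07 ± 0.10) and CENPQ (0.03 ± 0.13 and -0.12 ± 0.10) were not called in either clone. Without the TMZ library b of SurvNESmut-GFP, CENPM (-0.24, adjusted p = 0.0454) and CENPQ (-0.32, adjusted p = 0.0152) were called lower and CENPT higher (0.25, adjusted p = 0.0256) in that clone. In Surv-GFP CENPM was called higher in 3 alternatives, namely without either TMZ library of SurvNESmut-GFP and in the fit on the compared groups alone (0.25 in each, adjusted p from 0.0145 to 0.0267). CENPO was not called, and it measured 74.1 and 72.8 CPM against 73.6 and 75.1 CPM in Surv-GFP.

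All 4 subunits of the NDC80 complex, the main microtubule receptor, were called lower in Surv-GFP, against 28.9% of all genes. The complex as a sum went there from 124 and 133 CPM to 77.3 and 73.1 CPM. NDC80 itself went from 39.5 and 46.3 to 25.1 and 23.4 CPM in Surv-GFP (-0.82 ± 0.09, adjusted p = 5.06e-07) and from 47.5 and 52.8 to 34.7 and 36.8 CPM in SurvNESmut-GFP (-0.49 ± 0.08, adjusted p = 0.000189). NUF2, with which it forms the microtubule-binding end, went from 46.3 and 48.3 to 29.9 and 27.7 CPM and from 77.8 and 83.9 to 48.8 and 59.6 CPM, respectively. The changes of NUF2, -0.71 ± 0.09 and -0.58 ± 0.08, were not told apart by the test of their difference (0.13 ± 0.12, adjusted p = 0.407). SPC24 and SPC25 form the end that docks on the inner kinetochore. SPC24 fell in Surv-GFP from 12.8 and 13.3 to 8.66 and 6.83 CPM (-0.75 ± 0.14, adjusted p = 0.000291), whereas treated and untreated libraries of SurvNESmut-GFP overlapped (14 and 11.2 CPM without and 15.6 and 13 CPM with TMZ). SPC25 fell by 0.80 ± 0.08 in Surv-GFP (adjusted p = 4.72e-07) and measured -0.18 ± 0.07 in SurvNESmut-GFP (adjusted p = 0.0444), where the call was lost without the untreated library a (-0.20, adjusted p = 0.116), without the untreated library b (-0.17, adjusted p = 0.172), without the TMZ library a (-0.13, adjusted p = 0.232) and without either untreated library of Surv-GFP (-0.18 in both, adjusted p = 0.0601 and 0.0598).

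In the MIS12 complex, the link between the CCAN and NDC80, changes were small and of either sign. MIS12 rose in Surv-GFP from 25.9 and 25.2 to 33.5 and 31.2 CPM (0.34 ± 0.08, adjusted p = 0.00103), and in SurvNESmut-GFP the untreated (42.8 and 40.1 CPM) and treated (44.4 and 40.9 CPM) libraries overlapped. PMF1 measured 14.4 and 14.6 CPM without and 14.3 and 13.2 CPM with TMZ in Surv-GFP and was called lower in SurvNESmut-GFP, from 16.7 and 18.2 to 14.8 and 14.4 CPM (-0.26 ± 0.10, adjusted p = 0.0460). That call was lost without any library but the TMZ library b of Surv-GFP (log2 fold change -0.32 to -0.19), and 49.2% of the exon bases of PMF1 are shared with the readthrough gene PMF1-BGLAP on the same strand. DSN1 (-0.27 ± 0.06) and NSL1 (-0.19 ± 0.07) were called lower in Surv-GFP, NSL1 not without the untreated library b (-0.13, adjusted p = 0.210), the TMZ library a (-0.21, adjusted p = 0.0532) or the TMZ library b (-0.20, adjusted p = 0.0670) of that clone. ZWINT, the partner of the scaffold KNL1, fell in both clones by 0.30 ± 0.06 and 0.24 ± 0.06, the latter not without the untreated library b of SurvNESmut-GFP (-0.20, adjusted p = 0.0706). ZWILCH and ZW10 belong to the RZZ complex, which recruits MAD1 and dynein. ZWILCH rose in Surv-GFP from 54.6 and 60.8 to 72.4 and 68.2 CPM (0.29 ± 0.06, adjusted p = 0.000913) and in SurvNESmut-GFP from 94 and 92.8 to 101 and 107 CPM (0.16 ± 0.06, adjusted p = 0.0464). The rise in SurvNESmut-GFP was lost without either TMZ library of Surv-GFP, either untreated library of SurvNESmut-GFP or its TMZ library b (0.11 to 0.16). ZW10 was called lower in Surv-GFP (-0.26 ± 0.11, adjusted p = 0.0452), a call lost without any of the 4 untreated libraries or the TMZ library b of Surv-GFP (-0.28 to -0.22). The call of ZW10 was also lost with DESeq2 (-0.29, adjusted p = 0.124) and with the replicate letter as a block (-0.26, adjusted p = 0.0550).

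At the outer face the changes were large. CENPE, the kinesin that carries chromosomes to the spindle equator, went from 135 and 149.7 to 46.3 and 42.3 CPM in Surv-GFP and from 162 and 167 to 70.8 and 67.8 CPM in SurvNESmut-GFP. This is 3.21-fold lower (-1.68 ± 0.06, adjusted p = 1.44e-12) and 2.37-fold lower (-1.25 ± 0.06, adjusted p = 1.72e-10). CENPF, a large coiled-coil protein of the corona and the most counted member, went from 681 and 759.7 to 237 and 240.4 CPM in Surv-GFP (-1.59 ± 0.05, adjusted p = 3.85e-13). In SurvNESmut-GFP it went from 790.0 and 786 to 444 and 448 CPM (-0.82 ± 0.05, adjusted p = 4.65e-09), and its treated libraries stood between the untreated and the treated libraries of Surv-GFP. The printed windows of both genes hold CHR elements, 2 side by side before the start of CENPE and 1 after the start of CENPF. SPAG5 (astrin) and KNSTRN (kinastrin), partners that stabilize attached microtubules, also fell. SPAG5 went from 68 and 74 to 34.4 and 32 CPM in Surv-GFP (-1.09 ± 0.07, adjusted p = 4.62e-10) and from 153 and 163 to 99.2 and 101 CPM in SurvNESmut-GFP (-0.66 ± 0.06, adjusted p = 1.11e-07). KNSTRN went from 52.7 and 52.3 to 24.3 and 27.4 CPM and from 82 and 84.6 to 40.6 and 43.2 CPM, falls of 2.03-fold and 1.99-fold (-1.02 ± 0.07 and -0.99 ± 0.06).

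The SKA complex, which strengthens NDC80 on microtubules, split. SKA2 fell from 63.1 and 76.7 to 47.8 and 42.6 CPM in Surv-GFP (-0.63 ± 0.08, adjusted p = 5.38e-06) and from 102 and 102 to 73.9 and 79.3 CPM in SurvNESmut-GFP (-0.41 ± 0.08, adjusted p = 0.000398). SKA1 rose from 28.7 and 32.9 to 37.8 and 35.4 CPM in Surv-GFP (0.25 ± 0.07, adjusted p = 0.00955) and from 43.9 and 43 to 55.1 and 53.7 CPM in SurvNESmut-GFP (0.32 ± 0.07, adjusted p = 0.00149). The 2 subunits thus moved in opposite directions in both clones. The rise of SKA1 in Surv-GFP was lost without the untreated library a (0.15, adjusted p = 0.160) or the TMZ library a (0.20, adjusted p = 0.0918) of that clone and with DESeq2 (0.22, adjusted p = 0.0604), and that in SurvNESmut-GFP was kept in every alternative. SKA3 fell in Surv-GFP from 29.3 and 28.7 to 24.3 and 24.7 CPM (-0.24 ± 0.08, adjusted p = 0.0113) and measured 45.4 and 46.8 CPM before and 53.1 and 47.8 CPM after TMZ in SurvNESmut-GFP (0.13 ± 0.07, adjusted p = 0.130), a value called higher without the TMZ library b of that clone (0.21, adjusted p = 0.0242). Its fall in Surv-GFP was lost without library a of either Surv-GFP group (-0.23 in both, adjusted p = 0.0669 and 0.0639).

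Of the 7 checkpoint genes, 6 were called lower in each clone (85.7%), against 28.9% of all genes in Surv-GFP and 19.1% in SurvNESmut-GFP. The exception was MAD1L1. BUB1, the kinase that marks the inner centromere and builds the checkpoint platform, went from 135 and 147 to 45.8 and 46.6 CPM in Surv-GFP and from 149 and 157 to 66.9 and 68.6 CPM in SurvNESmut-GFP. The falls were -1.61 ± 0.06 (adjusted p = 8.30e-13) and -1.18 ± 0.06 (adjusted p = 1.31e-10). Between the clones BUB1 differed by 0.12 ± 0.05 without TMZ, which missed the threshold (adjusted p = 0.0549), and by 0.55 ± 0.06 with TMZ (adjusted p = 5.39e-07). The former ranged from 0.06 without the untreated library a of Surv-GFP to 0.18 without its untreated library b, where it was called (adjusted p = 0.0225). BUB1B encodes BUBR1, a subunit of the inhibitor of CDC20. It went from 84.9 and 96.8 to 37.7 and 35.5 CPM in Surv-GFP (-1.31 ± 0.07, adjusted p = 6.34e-11) and from 159 and 156 to 97.4 and 101 CPM in SurvNESmut-GFP (-0.67 ± 0.06, adjusted p = 2.01e-07). TTK, the kinase MPS1 that starts the signal, went from 60.0 and 62.6 to 28.4 and 25.9 CPM in Surv-GFP (-1.17 ± 0.07, adjusted p = 2.47e-10) and from 96.9 and 95.1 to 58.7 and 63.2 CPM in SurvNESmut-GFP (-0.66 ± 0.06, adjusted p = 2.43e-07). For both genes the treated SurvNESmut-GFP libraries were at about the level of untreated Surv-GFP. CDC20, which the checkpoint restrains, went from 170.5 and 180.3 to 60.1 and 60.3 CPM in Surv-GFP (-1.54 ± 0.06, adjusted p = 1.30e-12) and from 263 and 259 to 122 and 111 CPM in SurvNESmut-GFP (-1.17 ± 0.05, adjusted p = 1.06e-10). BUB3, the adaptor of BUB1 and BUBR1, changed by -0.22 ± 0.05 and -0.19 ± 0.05, and MAD2L1, the MAD2 protein that binds CDC20, by -0.46 ± 0.06 and -0.20 ± 0.06. In SurvNESmut-GFP the call of BUB3 was lost without the untreated library b (-0.17, adjusted p = 0.0535), and that of MAD2L1 without the untreated library a (-0.21, adjusted p = 0.0589), the untreated library b (-0.20, adjusted p = 0.0836) or the TMZ library a (-0.15, adjusted p = 0.0941). MAD1L1, the MAD1 protein that holds MAD2 at kinetochores, measured 0.13 ± 0.06 (adjusted p = 0.0719) and -0.03 ± 0.06 (adjusted p = 0.699). In Surv-GFP MAD1L1 was called higher without its untreated library b (0.22, adjusted p = 0.0199) and without either TMZ library of SurvNESmut-GFP (0.14 in both, adjusted p = 0.0370 and 0.0375). Exons of the members BUB1, BUB3, CDC20, SKA2, CENPC and CENPI have pseudogene copies in GENCODE v29 that are not rows of the count file, and it is not known here how reads matching both were counted.

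The difference between the TMZ effects was tested as an interaction, SurvNESmut-GFP minus Surv-GFP. For 18 members it was called positive, against 16.6% of all tested genes, and for 1 member negative, against 20.2%, with a median of 0.24 over the members and 0.00 over all genes. Since this term is the arithmetic difference of both effects, it is not a further measurement. It was largest for SPC24 (0.93 ± 0.20, adjusted p = 0.00142), CENPP (0.90 ± 0.21, adjusted p = 0.00325), OIP5 (0.89 ± 0.17, adjusted p = 0.000684) and CENPF (0.77 ± 0.07, adjusted p = 6.59e-07). BUB1B (0.64 ± 0.09), SPC25 (0.62 ± 0.11), HJURP (0.61 ± 0.08) and TTK (0.52 ± 0.09) followed. In the CCAN it was called for CENPI (0.47 ± 0.12), CENPK (0.51 ± 0.13), CENPT (0.39 ± 0.11) and CENPP. The other positive calls were CENPE, SPAG5, BUB1, CDC20, MAD2L1, NDC80 and SKA3, with differences of 0.26 to 0.44. Of all 18, NDC80, MAD2L1 and CENPT lost the call in 1 or more alternatives, CENPT without the untreated library b of Surv-GFP (0.35, adjusted p = 0.0616) or the TMZ library a of SurvNESmut-GFP (0.29, adjusted p = 0.0549). NDC80 lost it without the untreated library b, the TMZ library a or the TMZ library b of Surv-GFP and without the untreated library a or the TMZ library b of SurvNESmut-GFP (0.21 to 0.39). MAD2L1 lost it without any library but the TMZ libraries a of both clones (0.19 to 0.26). The 15 others kept it in every alternative. The negative call, MIS12 (-0.30 ± 0.10, adjusted p = 0.0319), was lost in 8 alternatives, among them the ones without the untreated library a (-0.32, adjusted p = 0.0635), the untreated library b (-0.29, adjusted p = 0.0974) or the TMZ library a (-0.25, adjusted p = 0.140) of Surv-GFP and without the untreated library a (-0.25, adjusted p = 0.122) or the TMZ library b (-0.24, adjusted p = 0.0798) of SurvNESmut-GFP.

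**Figure D2:**
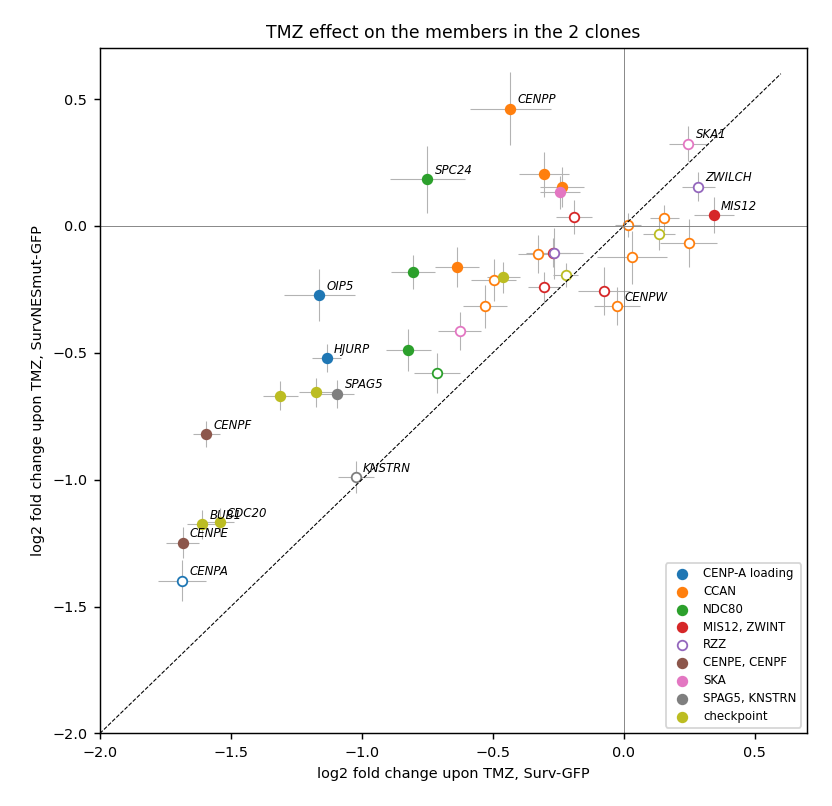
TMZ effect on each member in Surv-GFP (horizontal axis) and SurvNESmut-GFP (vertical axis), both as log2 fold change, with bars of 1 standard error. Filled points are the 19 members with a called difference between the effects, colours give the role, and the dashed line marks equal effects. Most members lie left of 0 and above the line, CENPA and KNSTRN have open points at the lower left, and SKA1 and ZWILCH lie in the upper right.

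Set by both effects, 19 members were called lower in both clones, 47.5% of the members against 11.9% of all genes. The difference was positive for 12 of these 19 (63.2%) and negative for 0. Of the 1693 genes called lower in both clones, it was positive for 490 (28.9%) and negative for 92. The 7 members lower in both without a called difference were CENPA, CENPC, NUF2, ZWINT, SKA2, KNSTRN and BUB3. For CENPA the difference was 0.29 ± 0.12 (adjusted p = 0.0832), and it was called in 4 alternatives (0.33 to 0.39, adjusted p from 0.0278 to 0.0464), namely without the untreated library a of Surv-GFP or the TMZ library b of SurvNESmut-GFP, with library size alone and with the filter of 1 CPM in 2 libraries. SKA2 was called without the untreated library a of Surv-GFP (0.34, adjusted p = 0.0197) and NUF2 without the TMZ library a of SurvNESmut-GFP (0.27, adjusted p = 0.0312). KNSTRN (0.03 ± 0.09) and BUB3 (0.03 ± 0.07) gave values close to 0 with small errors. A further 5 members, CENPI, CENPK, CENPT, SPC24 and SKA3, were lower in Surv-GFP alone with a called difference. Lower in Surv-GFP without one were CENPH, CENPL, DSN1, NSL1 and ZW10. Of these, CENPH (0.29, adjusted p = 0.0354) and NSL1 (0.30, adjusted p = 0.0141) were called without the TMZ library a of SurvNESmut-GFP, and CENPL (0.34 and 0.33) and NSL1 (0.28 and 0.27) with library size alone and with the filter of 1 CPM in 2 libraries. A negative difference was called for CENPM without the TMZ library b of SurvNESmut-GFP (-0.49, adjusted p = 0.00321) and for MAD1L1 without the untreated library b of Surv-GFP (-0.25, adjusted p = 0.0489).

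The clones also differed from each other. Without TMZ, 31 members were called higher in SurvNESmut-GFP against 34.7% of all genes, and 0 lower against 29.4%. At an unadjusted p under 0.05 and with DESeq2 the number of lower members was also 0. The median difference was 0.43 on the log2 scale over the members and 0.03 over all genes. SPAG5 (68 and 74 CPM in Surv-GFP and 153 and 163 CPM in SurvNESmut-GFP, 1.16 ± 0.06), CENPQ (11.7 and 10.4 and 27.5 and 26.2 CPM, 1.29 ± 0.12) and CENPW (16.4 and 15.8 and 35.5 and 36.4 CPM, 1.16 ± 0.08) were higher in SurvNESmut-GFP by at least 1 on the log2 scale, 3 members against 7.85% of all genes. SPC25 (0.92 ± 0.07), CENPM (0.95 ± 0.10), OIP5 (0.88 ± 0.11), DSN1 (0.86 ± 0.06), BUB1B (0.80 ± 0.06) and NUF2 (0.77 ± 0.08) came next. Smaller values were measured for some of those that fell most upon TMZ, with CENPF at 0.13 ± 0.05 and BUB1 at 0.12 ± 0.05. No call was made for BUB1, BUB3, CENPC, CENPK, CENPL, CENPP, CENPT, NSL1 or SPC24. The calls of CENPE, CENPF, CENPH, CENPI, NDC80, PMF1, ZWINT and ZW10 were lost in 1 or more alternatives. For CENPE that was without the untreated library a of Surv-GFP (0.14), and for CENPF without any library but the untreated library b of Surv-GFP (0.05 to 0.14). The call of CENPF was also lost with DESeq2, its size factors and library size alone. Both other filters and the fit on the compared groups alone lost it as well (0.07 to 0.10 over these alternatives). Without the untreated library a of Surv-GFP or the untreated library b of SurvNESmut-GFP the calls of CENPH (0.16 and 0.13), NDC80 (0.12 and 0.15), PMF1 (0.26 and 0.21), ZWINT (0.11 and 0.13) and ZW10 (0.26 and 0.22) were lost. PMF1 (0.28) and ZW10 (0.30) were also lost without the untreated library b of Surv-GFP, CENPH (0.16), NDC80 (0.19) and ZWINT (0.14) without its TMZ library a, and CENPH (0.16) and ZWINT (0.14) without its TMZ library b. CENPI was lost only with DESeq2 (0.26, adjusted p = 0.0557). DESeq2 also lost the calls of CENPH (0.17), NDC80 (0.20), PMF1 (0.24), ZWINT (0.15) and ZW10 (0.25). In all, 24 members were called higher with DESeq2, against 4039 of 14201 genes. With library size alone these were 25 members and 4364 genes. With the filter of 1 CPM in 2 libraries they were 26 members and 4413 of 13504 genes.

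**Figure D3:**
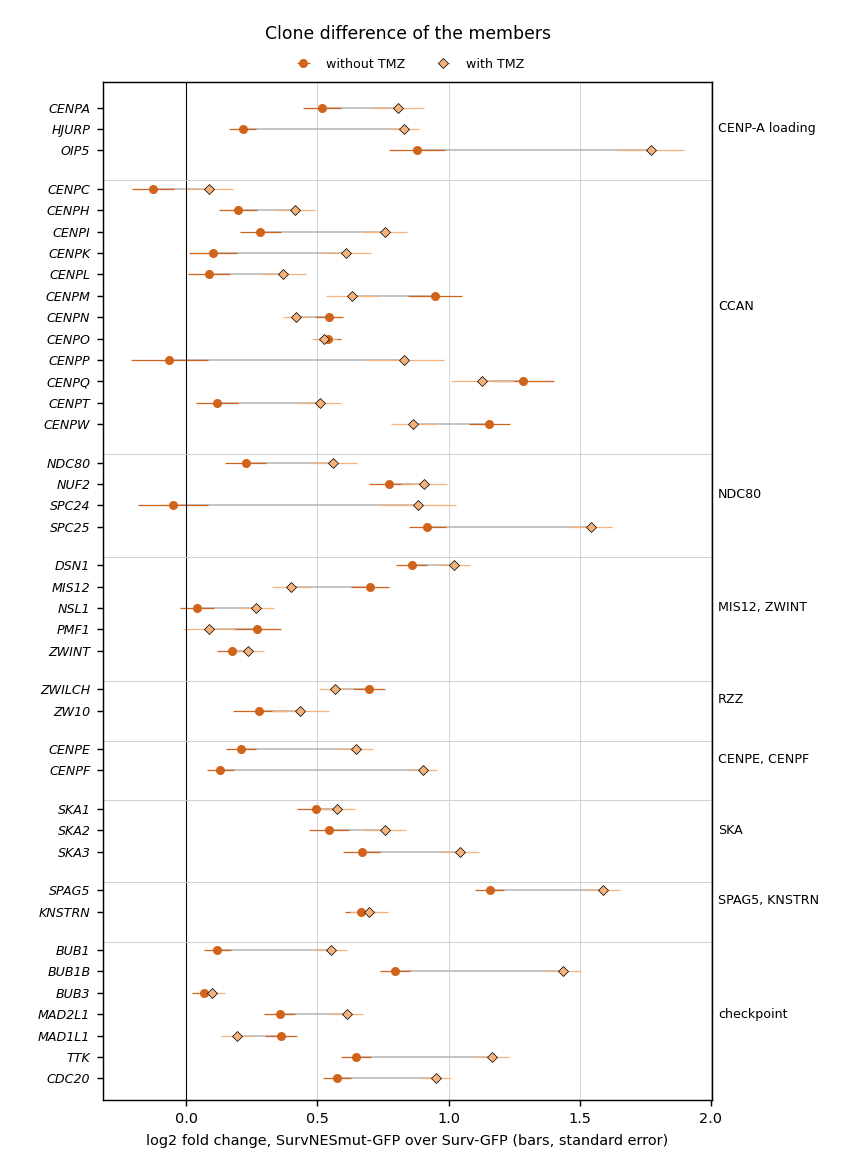
Difference between the clones for each member, as log2 fold change of SurvNESmut-GFP over Surv-GFP (horizontal axis) without TMZ (circles) and with TMZ (diamonds), with bars of 1 standard error, ordered by role (vertical axis). With TMZ all 40 values are above 0, and the shift between the symbols is long for SPC24, CENPP, OIP5 and CENPF and short for KNSTRN and BUB3.

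With TMZ, 37 members were called higher in SurvNESmut-GFP against 34.5% of all genes, and 0 lower against 34.7%. The number of lower members was again 0 at an unadjusted p under 0.05 and with DESeq2. The median difference was 0.64, with a range of 0.09 to 1.77, and the median of all genes was 0.00. The comparison shares its libraries with those above, so its values are not independent of them. OIP5 (1.77 ± 0.13, 3.41-fold), SPAG5 (1.59 ± 0.06, 3.01-fold), SPC25 (1.54 ± 0.08) and BUB1B (1.44 ± 0.07) were farthest apart, and CENPC (0.09 ± 0.09), PMF1 (0.09 ± 0.10) and BUB3 (0.10 ± 0.05) were not called. In OIP5 the treated libraries held 4.81 and 5.91 CPM in Surv-GFP and 18.6 and 17.9 CPM in SurvNESmut-GFP. The calls of NSL1, ZWINT and MAD1L1 were lost when single libraries were left out, NSL1 without TMZ library b of SurvNESmut-GFP (0.15, adjusted p = 0.0676), ZWINT without TMZ library b of Surv-GFP (0.18, adjusted p = 0.0503) and MAD1L1 without TMZ library a of Surv-GFP (0.13, adjusted p = 0.172) or of SurvNESmut-GFP (0.12, adjusted p = 0.138).

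Levels were compared between members per kb of merged exon in GENCODE v29, whose gene models may differ from those used for counting. The exons of all protein-coding transcripts of a gene were merged. A gene with exons that these cells do not use is therefore given too low a level, and which transcripts they use was not tested. In untreated Surv-GFP the highest level was that of CDC20 (95.9 CPM per kb), followed by CENPF (69.6), ZWINT (61.9), BUB1 (38.7) and HJURP (38.5 CPM per kb). CENPP was lowest (0.895 CPM per kb), and CENPC (3.27), ZW10 (4.39) and SPC24 (5.65 CPM per kb) were also low. Subunits that form a complex together did not stand at 1 level by this measure. In the NDC80 complex NUF2 measured 23.4, NDC80 19.7, SPC25 18.6 and SPC24 5.65 CPM per kb, and in the treated cells these levels were 14.3, 11.2, 10.7 and 3.35 CPM per kb. The order of these 4 was thus the same before and after TMZ in Surv-GFP, although NDC80 and SPC25 were within the spread of the libraries. In treated SurvNESmut-GFP SPC25 (31.0 CPM per kb) stood above NUF2 (26.8) and NDC80 (16.5 CPM per kb). In the MIS12 complex DSN1 stood apart, with 27.9 CPM per kb in untreated Surv-GFP and 50.6 CPM per kb in untreated SurvNESmut-GFP against 9.06 and 14.7 CPM per kb of MIS12. In the SKA complex SKA2 was above SKA1 before TMZ in Surv-GFP (23.4 and 10.5 CPM per kb), and the 2 were closer after it (15.1 and 12.4 CPM per kb).

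**Figure D4:**
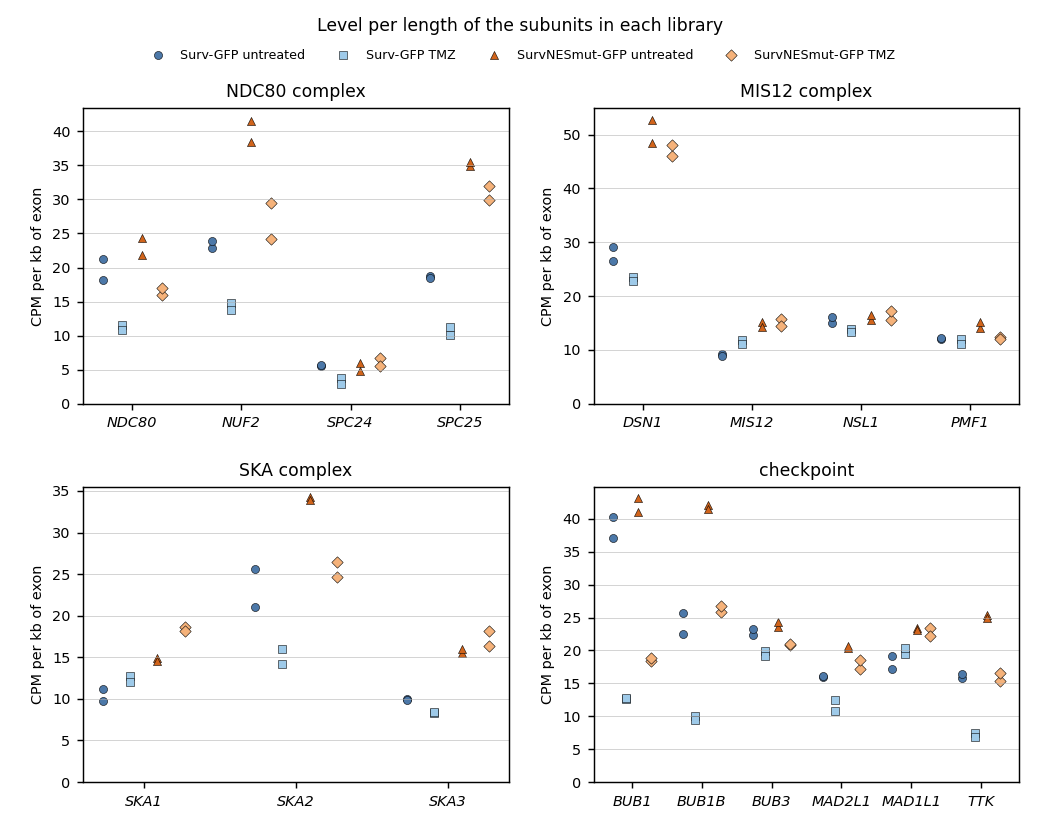
Level per length of the subunits of the NDC80, MIS12 and SKA complexes and of 6 checkpoint genes, in CPM per kb of exon (vertical axes, from 0), with 1 symbol per library and colours and shapes for the 4 groups. NUF2, NDC80 and SPC25 drop from untreated to treated Surv-GFP while SPC24 is low throughout, and DSN1 stands above the other MIS12 subunits in every group.

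Of the 40 members, 35 matched an entry of the RefSeq promoter table (GRCh38.p14), and CENPH, CENPL, CENPM, BUB3 and TTK did not. The end of the window occurred in a GENCODE v29 transcript of the same gene for 33 of the 35. Whether each window lies at the start that these cells use was not tested, also for windows without any of the searched letters. Each window ran from 250 bases before to 50 bases after the start and was searched on both strands for the CHR letters named above, for the letters of the CCAAT box and for E2F sites (TTTGGCGC, TTTCCCGC, TTTGCCGC or TTTCGCGC), and 0 hits of different motifs overlapped each other in the members. A CHR was found in 18 of 35 windows (51.4%), against 16.3% of the windows of the 10454 tested genes with an entry and 24.3% of all windows in the table. A CCAAT box was found in 20 (57.1%, against 36.8% and 35.7%), both together in 10 (28.6%, against 6.59% and 9.49%) and an E2F site in 3 (8.57%, against 5.31% and 3.33%). The windows printed above show these arrangements, with CHR and CCAAT in CENPF and CDC20, a CHR alone in the printed stretch of CENPA, CENPE and SKA1, and CCAAT boxes alone in BUB1 and MIS12. In CENPA both CCAAT boxes and the E2F site lie upstream of the stretch shown, as does an E2F site of MIS12. Further CHR elements of CENPE, CENPF and CDC20 also lie upstream of it.

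The median fall was deeper among members with a CHR, which was not tested. In Surv-GFP, 15 of the 18 with a CHR were called lower, with a median log2 fold change of -0.76, against 11 of the 17 without one, with a median of -0.27. In SurvNESmut-GFP these were 13 of 18 (median -0.40) and 6 of 17 (median -0.11). Among all tested genes the medians in Surv-GFP were -0.04 with and 0.01 without a CHR, with 32.7% and 29% called lower. The all-gene medians in SurvNESmut-GFP were -0.05 with and 0.01 without a CHR, with 26.57% and 18.96% called lower. The elements did not sort the members cleanly. BUB1 fell by 1.61 ± 0.06 in Surv-GFP with CCAAT boxes alone, OIP5 by 1.16 ± 0.14 with CCAAT boxes and an E2F site, and KNSTRN by 1.02 ± 0.07 with none of the searched letters in its window, while SKA1 with a CHR close to its start rose in both clones. A match is a description of letters, and binding was not measured here.

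**Figure D5:**
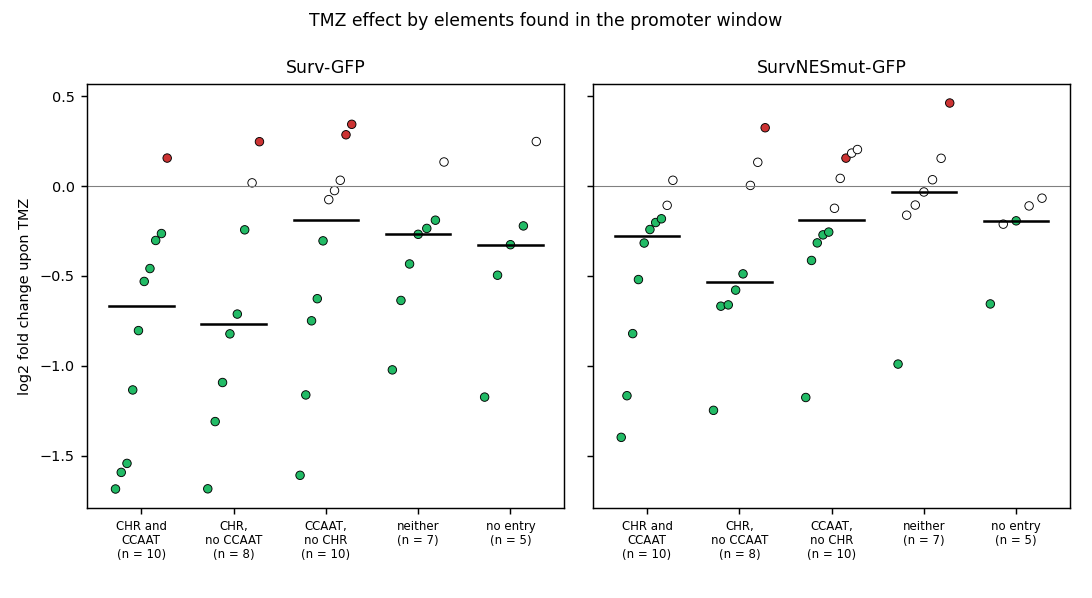
Log2 fold change upon TMZ (vertical axis) of the members in Surv-GFP (left) and SurvNESmut-GFP (right), sorted by the elements found in the promoter window (horizontal axis, with the number of members). Green points were called lower, red points higher and open points neither, and bars are medians. The medians of both classes with a CHR, -0.67 and -0.77 in Surv-GFP, lie below those of the classes without it.

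Further genes of the same machinery were read from lists of related symbols. Their counts are read against the shares of all genes, 28.9% lower and 30.1% higher in Surv-GFP and 19.1% lower and 18.6% higher in SurvNESmut-GFP. Of 22 other kinetochore genes tested, 11 were called lower (50%) and 6 higher (27.3%) in Surv-GFP, with a median of -0.12, and 7 lower (31.8%) and 4 higher (18.2%) in SurvNESmut-GFP, with a median of -0.02. The shares called higher are near those of all genes. CASC5, the older symbol of the scaffold KNL1, fell by 1.13 ± 0.06 in Surv-GFP (adjusted p = 1.07e-10) and by 0.51 ± 0.05 in SurvNESmut-GFP. KNTC1, the ROD subunit that binds ZWILCH and ZW10, fell by 0.57 ± 0.07 in Surv-GFP (adjusted p = 1.51e-06) and measured -0.01 ± 0.06 in SurvNESmut-GFP, so that the 3 RZZ subunits moved differently. CLIP1, a microtubule plus-end protein, rose by 0.65 ± 0.06 and 0.21 ± 0.06. Of 18 subunits and regulators of the anaphase-promoting complex, the target of the checkpoint, 7 were lower (38.9%) and 3 higher (16.7%) in Surv-GFP and 5 lower (27.8%) and 3 higher (16.7%) in SurvNESmut-GFP, shares closer to those of all genes than the shares of the members were for the falls. In this list the inhibitor FBXO5 (-0.82 ± 0.09) was lowest in Surv-GFP and the ubiquitin-conjugating enzyme UBE2S (-0.88 ± 0.09) in SurvNESmut-GFP. Of 15 cohesin and separase genes, 11 were lower (73.3%) and 1 higher in Surv-GFP, and 9 lower (60%) and 0 higher in SurvNESmut-GFP. ESPL1, which encodes separase, fell by 0.88 ± 0.06 and 0.40 ± 0.06, and PTTG1, which encodes its inhibitor securin, by 0.63 ± 0.07 and 1.13 ± 0.07. The difference between the effects was positive for ESPL1 (0.48 ± 0.08) and negative for PTTG1 (-0.50 ± 0.10).

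Markers of proliferating cells moved with the members. All 11 tested fell in Surv-GFP, against 28.9% of all genes, with a median of -0.82 and a range of -1.57 (TOP2A) to -0.11 (MCM7), and 9 of 11 fell in SurvNESmut-GFP, against 19.1%, with a median of -0.33. MKI67, the Ki-67 antigen, fell by 1.21 ± 0.05 and 0.73 ± 0.05. The difference between the effects was called positive for 10 of the 11, against 16.6% of all genes, with a median of 0.48. With TMZ all 11 were higher in SurvNESmut-GFP, against 34.5% of all genes. Without TMZ 7 were higher (63.6%, against 34.7%) and 2 lower (18.2%, against 29.4%). The part of the number of cycling cells in the results on the members was not tested.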

How the data were processed

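The authors sequenced total RNA of the LN229 clones D6 and L2, each with and without TMZ (50 µM, 48 h). By their labels the 8 libraries form 4 groups of 2. The authors deposited whole-number read counts per gene symbol, not normalized. The submitters' processing notes name STAR 2.5.0b, Cufflinks 2.2.1 and edgeR with no roles. Of the counting program, genome build, annotation and strandedness nothing is stated in the sources used here. The count file holds 26364 genes and 2 rows that name no gene, which were left out of library sizes and tests. Of all counts of a library, these rows included, reads without a feature made up 11.2 to 14.3% and ambiguous reads 1.19 to 1.28%. The 5 comparison tables of the authors hold edgeR output (FDR, p, F, mean log CPM and log fold change) and were not used here.

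The tests ran in edgeR 4.0.16 under R 4.3.3 (limma 3.58.1), with TMM factors of 0.978 to 1.02, filterByExpr by group with a minimum count of 10, 1 model of 4 group means on all 8 libraries, the legacy quasi-likelihood F test and 5 contrasts. Benjamini-Hochberg adjustment ran over 14201 genes. The common biological coefficient of variation was 4.09%. The fits were tested on simulated data. The 40 members and all lists were chosen with earlier results of these data known, and the lists of related genes and markers were written from general knowledge. Genes given library by library were mostly those with the largest changes in their role class in each TMZ contrast, or a change against most of their class. CENPO and CENPQ were given so outside this rule. The promoter table holds more than 1 entry for some symbols, of which the first was kept, and exon lengths and overlaps come from GENCODE v29. Alternatives were DESeq2 1.42.0, its size factors, library size alone, no filter beyond 1 count, 1 CPM in 2 libraries, the edgeR 4 method, the replicate letter as a block, a fit on the compared groups alone, and the omission of single libraries. Some genes of the related lists are not reported here by name.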

Additional observations from a re-analysis of the deposited data

Results flagged for a closer look

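For 19 members the TMZ effect differed between the clones by the test of the difference itself (edgeR, adjusted p under 0.05). On the log2 scale, SurvNESmut-GFP minus Surv-GFP, the difference was 0.93 for SPC24, 0.90 for CENPP, 0.89 for OIP5, 0.77 for CENPF, 0.64 for BUB1B, 0.62 for SPC25, 0.61 for HJURP and 0.52 for TTK. It was 0.51 for CENPK, 0.47 for CENPI, 0.44 for CENPE, 0.43 for BUB1, 0.43 for SPAG5, 0.39 for CENPT, 0.38 for CDC20, 0.38 for SKA3, 0.33 for NDC80 and 0.26 for MAD2L1. For MIS12 it was -0.30. Each variant is 1 clone, so these differences may belong to the clone or to the construct. Groups of 2 libraries are too small for a check of single libraries that stand apart.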

How the results depend on the processing

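No call on a member changed its direction in any alternative. With DESeq2, 2 members were called higher upon TMZ in Surv-GFP (4 with edgeR) and 1 in SurvNESmut-GFP (3 with edgeR). The calls lost with DESeq2 were those of CENPN, CENPP, CENPT, ZW10 and SKA1 in Surv-GFP. In SurvNESmut-GFP they were those of OIP5, CENPC, CENPP, SPC25, PMF1 and ZWILCH, and among the differences those of NDC80, MAD2L1 and MIS12. Without TMZ, 24 members were called higher in SurvNESmut-GFP with DESeq2 and 25 with library size alone (31 with edgeR and TMM). The single negative difference between the effects, that of MIS12, went to 0 members with library size alone, with the filter of 1 CPM in 2 libraries and with DESeq2. With 1 library left out, the members called higher numbered 2 to 6 in Surv-GFP and 1 to 4 in SurvNESmut-GFP, and those with a negative difference 0 to 1. The count fell from 4 to 2 in Surv-GFP without its untreated library a or its TMZ library a, and from 3 to 1 in SurvNESmut-GFP without its untreated library a. The members called lower numbered 25 to 30 in Surv-GFP and 15 to 21 in SurvNESmut-GFP under the same omissions. Letters were not shown to pair the samples: correlations of the deviations from the group means ran from -0.067 to 0.083 between groups. With the replicate block, 29 members were lower and 4 higher in Surv-GFP, 19 lower and 2 higher in SurvNESmut-GFP, 18 differences were positive and 1 negative, and 32 and 37 members were higher in SurvNESmut-GFP without and with TMZ, the added member being BUB1 (0.12, adjusted p = 0.0497). When searched from 100 bases before the start, 16 of 35 windows (45.7%) held a CHR, against 6.63% of tested genes. In all, 24 of the 30 falls in Surv-GFP and 14 of the 21 in SurvNESmut-GFP were called in every alternative. Depth limits the members of fewest counts, such as OIP5 and CENPP. With 2 libraries a group, an omission leaves a lone library that is assumed to vary like the other groups.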
